A study of Mus musculus with 14 samples.

Results

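Among 12 mouse osteosarcomas, 4 carried a strong signal of skeletal muscle RNA and 8 did not. The tumours were chosen by the array signal of Acta1, the actin of skeletal muscle thin filaments. The 4 with at least 5000 units, osteosarcomas 3, 6, 8 and 9, formed the muscle-rich set and the remaining 8 the muscle-poor set. All 12 tumours had arisen in p53+/- mice, which carry 1 working copy of the tumour suppressor p53, and no treatment is named for them. Of the 14 Affymetrix arrays of the study, 1 held a p53+/- tumour labelled rhabdomyosarcoma, a sarcoma of the muscle lineage. Another held untreated mc3T3 cells, cultured mouse osteoblasts that do not form tumours. These arrays give reference values only. The labels do not say whether the tumours came from separate animals, so p-values measure the spread between these samples, and they do not say how tumours were cut from the surrounding tissue. In bulk RNA, more muscle cells in a sample and more muscle RNA per cell cannot be told apart.

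Skeletal muscle fibres contract when a nerve impulse opens voltage sensors in the membrane, which open the ryanodine receptor of the sarcoplasmic reticulum. The released calcium lets myosin pull on actin, and a calcium pump then returns it to store. Fast fibres hold fast myosins, the calcium buffer parvalbumin and much creatine kinase and glycogen enzyme, while slow fibres hold slow myosins, myoglobin and more mitochondria. Fibres form from precursor cells under the transcription factors Myod1, Myf5, Myog and Myf6. Osteosarcomas grow in bone and can lie against muscle, tendon, marrow, fat and nerve.

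Acta1, read by 1 probe set, had signals of 46907 in osteosarcoma 6, 32288 in osteosarcoma 9, 12295 in osteosarcoma 3 and 9842 in osteosarcoma 8. Among the muscle-poor tumours it ran from 8.5 in osteosarcoma 4 through a median of 1511 to 4398 in osteosarcoma 12. Osteosarcoma 2, at 4287, was the other tumour just below the threshold, and the lowest muscle-rich signal was 2.24 times the highest muscle-poor signal. Actn3, the alpha-actinin of fast fibres, was 23042 in osteosarcoma 6, 14494 in osteosarcoma 9, 1906 in osteosarcoma 3 and 2098 in osteosarcoma 8, above the muscle-poor range of 20.5 to 742.9. The rule itself fixed the order of the sets in Acta1, and Actn3 separated the same sets. In both genes the muscle-rich set split into a very high and a moderately high pair. Within the lower pair, osteosarcoma 8 was above osteosarcoma 3 in Actn3 and below it in Acta1. Acta1 was 296 in mc3T3 and 554 in the tumour labelled rhabdomyosarcoma. That tumour also had low signals for desmin (Des, 88.6), Myod1 (39.4) and Myog (65.9), so its array did not carry the defining muscle markers at the level of the muscle-rich osteosarcomas.

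**Figure D1:**
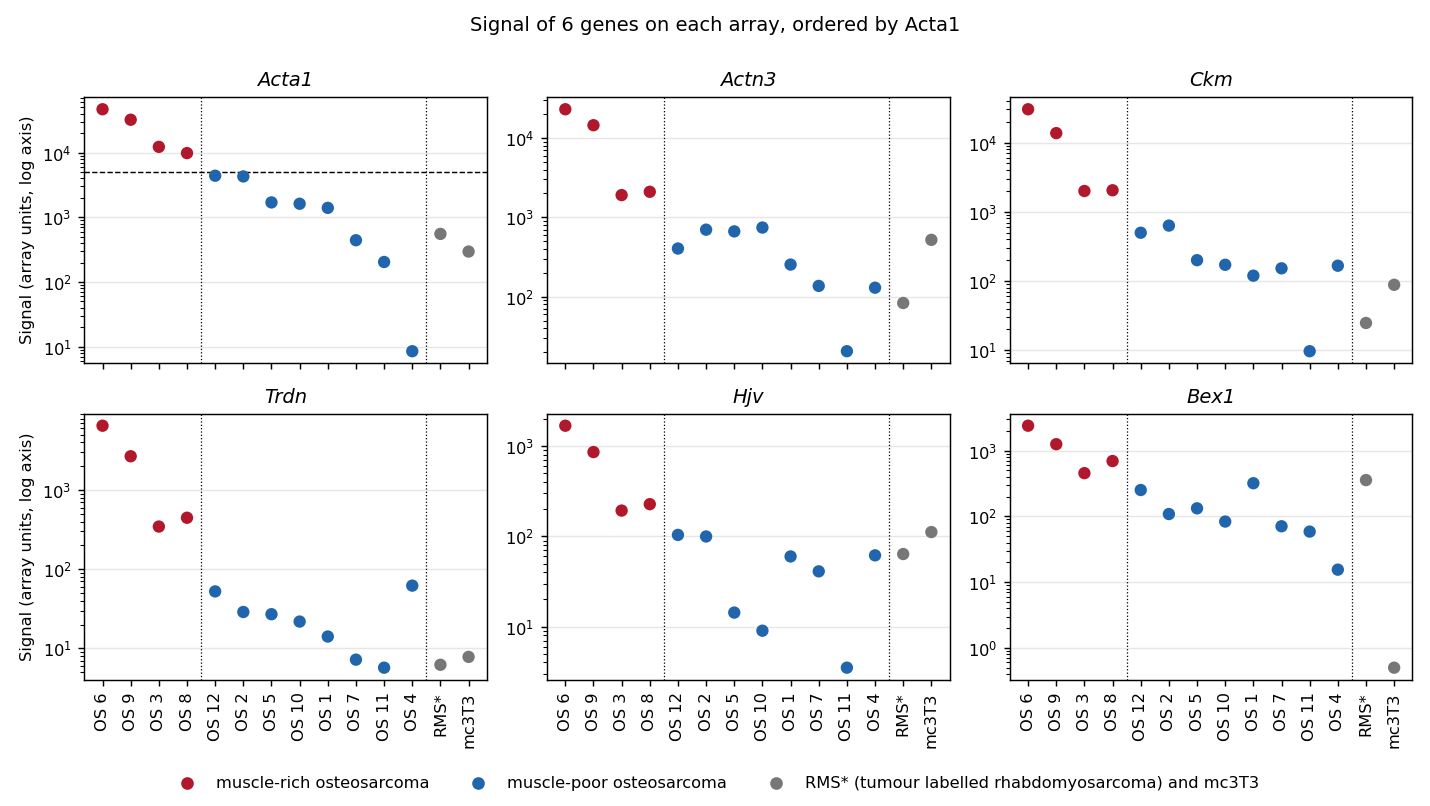
Each panel gives 1 gene's array signal (log axis, array units) on all 14 arrays, ordered by Acta1; red points are the 4 muscle-rich and blue the 8 muscle-poor osteosarcomas, grey the tumour labelled rhabdomyosarcoma (RMS*) and mc3T3, and the dashed line is the Acta1 threshold of 5000. In all 6 genes osteosarcomas 6 and 9 lie highest and the 4 red points lie above every blue point.

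Array quality overlapped between the sets. The median signal of an array was 78.8 to 110.2 units in the muscle-rich and 67 to 111.1 in the muscle-poor tumours, and the 3' to 5' ratio of beta-actin, which rises as RNA degrades, was 1.45 to 1.97 and 1.42 to 2.13. The letter at the start of a tumour's identifier, whose meaning the labels do not give, was uneven. The letter c occurred in 0 muscle-rich and 4 muscle-poor tumours, m in 3 and 3, and o in 1 and 1.

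The sarcomere, the contractile unit of muscle, was described first because Acta1 belongs to it. Of 71 sarcomere genes tested, 68 (95.8%) had a higher mean in the muscle-rich tumours, against 52.6% of all genes. In 37 of the 71 (52.1%) all muscle-rich signals lay above all muscle-poor signals, against 0.939% of all genes. The median difference was 2.46 on the log2(signal + 30) scale, against 0.02 over all 11817 genes. In 52 of the 71, osteosarcomas 6 and 9 were the 2 highest tumours. These values follow from the way the tumours were chosen and carry no test.

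Genes outside the sarcomere list went with the muscle signal in a small number. A gene was called with an adjusted p under 0.05 in limma and a difference of at least 1 on the log2(signal + 30) scale between the sets. By this rule 55 of 11817 genes (0.465%) were called higher in the muscle-rich tumours, 29 of them outside the sarcomere list, which is 0.247% of the 11746 genes outside it. Only 1 gene was called lower, 0.00846% of all genes and 0.00851% of those outside the list. Since Acta1 on these same arrays set the groups, the calls describe which genes go with the Acta1 split and are not independent evidence. With the Acta1 level as a continuous term in place of the split, 32 genes outside the list were called higher. Only 16 of the 29 were among these 32. Trdn, Pvalb, Ampd1, Hjv and Myog, described below, lost the call (limma adjusted p = 0.0714 to 0.116). Of the 29 genes, 14 belonged to the other muscle lists and 15 to no list.

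The 29 genes rested heavily on a pair of tumours. Osteosarcomas 6 and 9 were the 2 highest of the 12 in 27 of the 29 genes, with osteosarcoma 6 the highest in 26 and osteosarcoma 9 in 3. Over the 29, the median ratio to the muscle-poor median was 32.9 in osteosarcoma 6, 17.5 in osteosarcoma 9, 4.74 in osteosarcoma 3 and 4.68 in osteosarcoma 8. In 27 of the 29 the lowest muscle-rich signal still exceeded the highest muscle-poor signal, and Myf6 and Myog were the exceptions. Of the 29, 15 reached the minimum signal of 200 on no array but those of muscle-rich osteosarcomas, so their difference was partly fixed by that filter. Among genes described below, Trdn, Ampd1, Ckmt2, Cox8b, Myog, Itgb1bp2, Ankrd23, Mypn, Hjv, Pkia and Stbd1 reached 200 in no muscle-poor tumour.

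No gene remained called higher without osteosarcoma 6, without osteosarcoma 9, or with the identifier letter as a block, and 1 gene, Trdn, remained without both tumours. At an unadjusted p under 0.05 limma then gave 464 of 11817 genes without osteosarcoma 6, 689 without osteosarcoma 9 and 599 with the block. The main comparison gave 705 (5.97%). With no difference at all a share of 0.05 would fall there, so these counts are not read as remaining signal. Leaving out a muscle-poor tumour also lowered the count outside the sarcomere list. It was 10 without osteosarcoma 1, 9 without osteosarcoma 4, 9 without osteosarcoma 5, 4 without osteosarcoma 7, 6 without osteosarcoma 10 and 8 without osteosarcoma 11. The fall was small without osteosarcoma 2 or without osteosarcoma 12, just below the threshold, with 25 genes each. Without the muscle-rich osteosarcoma 3 the count rose to 41, and without osteosarcoma 8 to 49. The difference itself stayed positive for all of the 29 genes tested under each of the 25 alternatives run, of which the stricter filter left 18 of them to test, and its median over them ranged from 1.78 to 3.20. Since the 29 were chosen for their difference on these arrays, that sign was largely fixed in advance. In 27 of them the sets did not overlap, so leaving out tumours could not reverse it. Among the tumours with the letter m alone, 3 against 3, the median was 3.02. There limma gave 0 calls and 642 of 11817 genes an unadjusted p under 0.05, likewise not read as remaining signal.

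**Figure D2:**
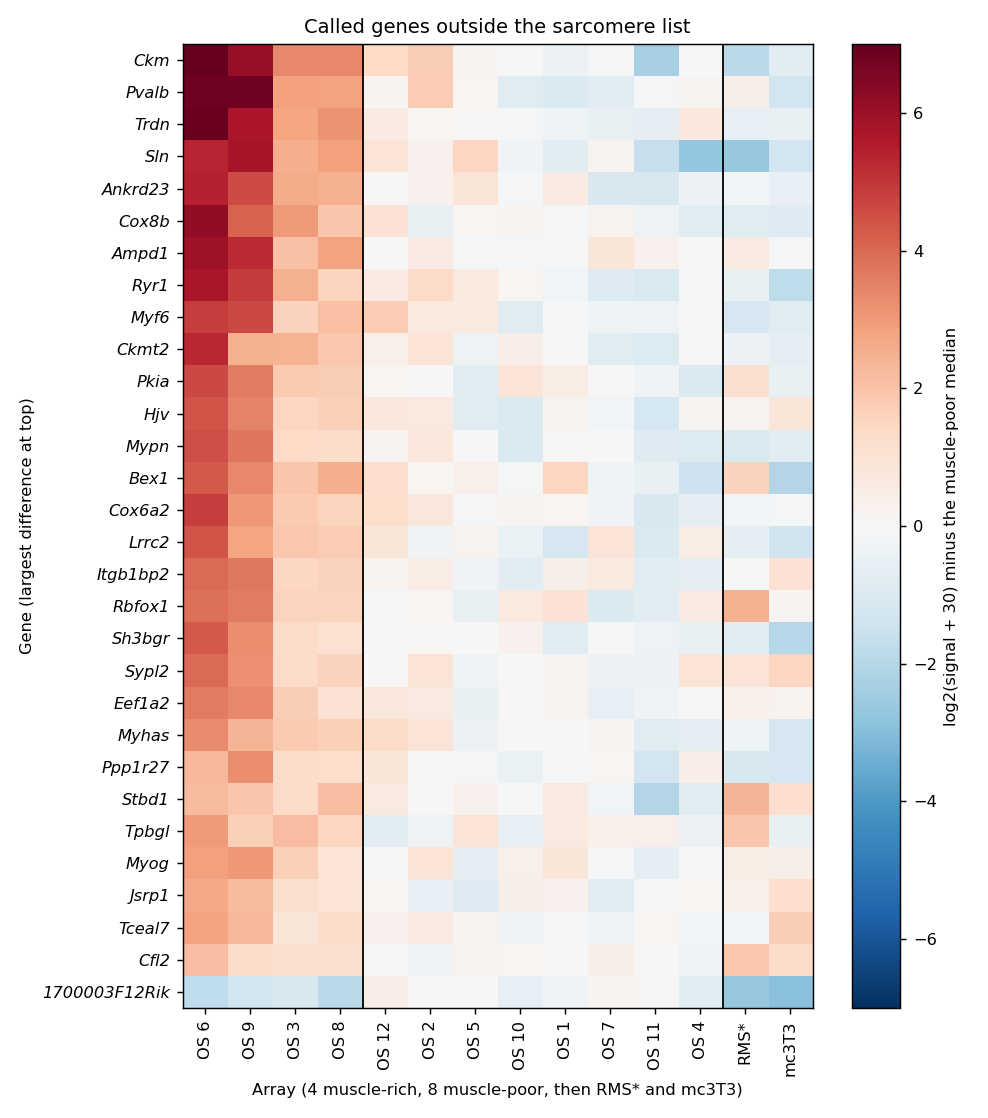
Rows are the 29 genes outside the sarcomere list called higher and, at the bottom, the 1 called lower; columns are the 14 arrays, and colour is log2(signal + 30) minus the gene's muscle-poor median. Osteosarcomas 6 and 9 are darkest, osteosarcomas 3 and 8 paler, and osteosarcomas 12 and 2, just below the threshold, hold the muscle-poor maximum in 14 of the 29.

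Calcium handling gave the most called genes of the lists outside the sarcomere, 6 of 30 tested, with a median difference of 1.13 and 26 of 30 differences above 0. Only 18 of the 30 reached the minimum signal of 200 in a muscle-poor tumour, so that filter may have partly fixed the sign for the others. Trdn, which encodes triadin, an anchor of the calcium release complex, had signals of 6490, 2670, 346 and 446 in osteosarcomas 6, 9, 3 and 8. Its muscle-poor signals were 5.7 to 62 with a median of 24.4, so the sets stood well apart. The difference was 4.61 (SE 0.62, limma adjusted p = 0.0118). Pvalb, the calcium buffer parvalbumin of fast fibres, had signals of 11810, 11711, 721 and 688 in the same order, against 20.8 to 330.3 with a median of 74.3. Here osteosarcomas 6 and 9 were level, and the difference was 4.88 (SE 0.78, adjusted p = 0.0229). Sln encodes sarcolipin, a small inhibitor of the calcium pump, and was highest in osteosarcoma 9. Its signals were 9182, 12695, 1308 and 1649, against 5.5 to 615.4 with a median of 203, a difference of 4.43 (SE 0.77, adjusted p = 0.032).

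Ryr1, the ryanodine receptor through which calcium leaves the store, had signals of 6359, 3701, 654 and 327 in osteosarcomas 6, 9, 3 and 8. The muscle-poor tumours had 27.9 to 279 with a median of 93.7, a narrow gap below osteosarcoma 8. Sypl2 and Jsrp1, proteins of the junction between membrane and reticulum, completed the 6, with differences of 2.41 and 1.89. Atp2a1, the calcium pump of fast fibres, did not pass the test. Its signals were 25913, 14169, 2341 and 1611, all above the muscle-poor range of 11 to 1162, and its difference was 4.28 (SE 0.87, adjusted p = 0.0502). Its error was larger than that of Trdn. Casq1, the calcium-storing calsequestrin, had a difference of 2.96 (adjusted p = 0.0546), and Cacna1s, the voltage sensor, of 2.26 (adjusted p = 0.0603). Atp2a2, the pump made in most cells, had signals of 6993 to 7940 in the muscle-rich and 6189 to 11507 in the muscle-poor tumours, which overlapped.

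Phosphate transfer genes led the energy group. Ckm, the cytosolic creatine kinase of muscle, had signals of 30222, 13665, 1995 and 2045 in osteosarcomas 6, 9, 3 and 8, against 9.7 to 631.8 with a median of 169. It showed the largest difference outside the sarcomere list, 4.96 (SE 0.79, adjusted p = 0.0229), and the highest muscle-poor signal was in osteosarcoma 2. Ampd1, the AMP deaminase of muscle, had 2118, 1290, 119.8 and 217.1 against 2.5 to 33.1 with a median of 5.7. Ckmt2, the mitochondrial creatine kinase of striated muscle, had 2413, 322.8, 308 and 204.4 against 2.7 to 87 with a median of 33.7. In Ckmt2 osteosarcoma 9 was close to osteosarcoma 3 rather than to osteosarcoma 6. These were the 3 called of 25 genes in the glycogen and glycolysis list, whose median difference was 0.55. Pygm, the glycogen phosphorylase of muscle, had a difference of 2.61 (adjusted p = 0.245) and its sets overlapped. The glycolytic enzymes of all tissues had small differences, -0.21 for Ldha and -0.18 for Pgk1.

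In the oxidative muscle list 2 of 29 genes were called, and the median difference was 0.44. Both encode muscle forms of cytochrome c oxidase subunits. Cox8b had signals of 4682, 1098, 467 and 214.3 in osteosarcomas 6, 9, 3 and 8, against 5.9 to 100.5 with a median of 34.1. Cox6a2 had 6845, 1944, 822 and 658.1 against 77.2 to 525.3 with a median of 208. In both, osteosarcoma 6 stood several-fold above osteosarcoma 9. Mb, the oxygen carrier myoglobin, had 11691, 13431, 2337 and 1387 against 9.2 to 1379. Its sets did not overlap, by a margin of a few units, and its difference of 3.90 (SE 0.99) had an adjusted p of 0.158. Car3, the cytosolic carbonic anhydrase of slow muscle and fat, was strong in every osteosarcoma, 30967 to 44395 in the muscle-rich and 8275 to 43585 in the muscle-poor tumours, with a difference of 0.89 (adjusted p = 0.737). The respiratory chain subunits of all tissues had a median difference of -0.02 over 45 genes, 0 of them called by limma and 0 with an unadjusted p under 0.05.

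Myogenic regulators gave 2 calls among 25 genes, with a median difference of 0.17. Myf6, the regulator kept on in mature fibres, had signals of 2163, 1859, 201.8 and 302.1 in osteosarcomas 6, 9, 3 and 8, against 13 to 229.5 with a median of 46.8. Myog, which drives the final step of fibre formation, had 469.6, 530.2, 186.6 and 97.8 against 11.7 to 98.5 with a median of 37.3. For both genes the weakest muscle-rich tumour fell inside the muscle-poor range, osteosarcoma 3 for Myf6 and osteosarcoma 8 for Myog. Their adjusted p-values were 0.0456 and 0.0484. Myod1, which commits cells to the muscle lineage, had 339.2, 454.8, 132.5 and 95.3, all above the muscle-poor maximum of 92, with a difference of 1.65 (adjusted p = 0.0574). The satellite cell gene Pax7 did not reach the minimum signal on any array and was not tested.

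At the fibre membrane 1 of 30 genes was called. Itgb1bp2, which encodes melusin, a binding partner of the beta-1 integrin tail, had signals of 973.3, 803.2, 151.1 and 171 in osteosarcomas 6, 9, 3 and 8, against 8.5 to 73.3 with a median of 36.5. Dmd, which encodes dystrophin, had a difference of 0.83 (adjusted p = 0.756). None of the 10 neuromuscular junction genes was called by limma, 2 had an unadjusted p under 0.05, and the median difference was 0.01. Chrna1, a subunit of the muscle acetylcholine receptor, had 1717, 1617, 284.8 and 263.5 against 88.4 to 400.6, so only osteosarcomas 6 and 9 lay above the muscle-poor range. None of 21 genes for muscle protein turnover and none of 21 muscle-secreted factors was called, with median differences of 0.15 and 0.01. Of these, 3 of 21 (14.3%) and 1 of 21 (4.76%) had an unadjusted p under 0.05, against 705 of 11817 (5.97%) over the whole table.

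Of the 15 called genes in no list, 3 encode known parts of the muscle filament system that the sarcomere list had left out. Ankrd23, an ankyrin repeat protein that binds titin, had signals of 5009, 2853, 703.3 and 654 in osteosarcomas 6, 9, 3 and 8, against 24.5 to 186.5 with a median of 90.7. Mypn, the Z-disc protein myopalladin, had 1683, 985.5, 165.8 and 149.7 against 7.3 to 101.7. Cfl2, the muscle form of the actin-severing protein cofilin, had 5902, 3355, 2898 and 2903 against 1085 to 1777. Cfl2 had the smallest difference of the 29, 1.39 (SE 0.22, adjusted p = 0.0207), and was also high in mc3T3, at 3417, and in the tumour labelled rhabdomyosarcoma, at 5035.

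Others of the 15 have roles outside the filaments. Hjv encodes hemojuvelin, a co-receptor for bone morphogenetic proteins that controls the iron hormone hepcidin and is made in muscle and liver. Its signals were 1693, 863.1, 193.6 and 228.1 in osteosarcomas 6, 9, 3 and 8, against 3.5 to 104 with a median of 50.5, and its difference was 2.96 (SE 0.55, adjusted p = 0.0325). Pkia, an inhibitor of protein kinase A, had 1602, 767.6, 201.7 and 186.7 against 1.9 to 93.9. Bex1, an adaptor protein of neurons and forming muscle, had 2401, 1256, 455.6 and 696.1 against 15.5 to 320.3, and 0.5 in mc3T3. For Bex1 osteosarcoma 1, at 320.3, was the highest of the muscle-poor tumours and the tumour labelled rhabdomyosarcoma had 357.4, close to the lowest muscle-rich signal.

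Of the 29 genes, 11 lay beyond the rule for named genes and were named after their values were seen, among them Sypl2, Jsrp1 and Cfl2 above. Eef1a2, the translation elongation factor form of muscle and neurons, had a difference of 2.39 and Rbfox1, a splicing regulator of the same tissues, of 2.66. Stbd1, which binds glycogen, had signals of 614.1, 505, 321.4 and 599 in osteosarcomas 6, 9, 3 and 8, against 2.9 to 188.3. It reached 689.7 in the tumour labelled rhabdomyosarcoma. Lrrc2, Sh3bgr, Ppp1r27, Tpbgl and Tceal7 had differences between 1.76 and 2.77. Myhas, named for its likeness to Acta1, is an antisense transcript of the myosin heavy chain gene cluster and had a difference of 2.23. Over the 29 genes the tumour labelled rhabdomyosarcoma exceeded every muscle-poor osteosarcoma in 6 and mc3T3 did so in 7.

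The 1 gene called lower was 1700003F12Rik, whose mean signal was 363 in the muscle-rich and 1026 in the muscle-poor tumours. Its signals were 286.2, 424.8, 472.6 and 267.8 in osteosarcomas 6, 9, 3 and 8, against 606.7 to 1514 with a median of 1070. The sets did not overlap, and the difference was -1.41 (SE 0.25, adjusted p = 0.032). The signal of 1700003F12Rik was lower still in mc3T3, at 115.8, and in the tumour labelled rhabdomyosarcoma, at 144.8.

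Promoter sequence was set beside the 29 genes because they moved together. RefSeq promoters on GRCm38.p6 were matched for 19 of them, and the 250 bases before the first listed start were searched on both strands. The letters searched were the E-box CAGCTG, a core bound by myogenic regulators, and the named MEF2 and CArG motifs, bound by MEF2 factors and by serum response factor. CAGCTG was found in 5 of 19 promoters (26.3%), against 11.7% of the 9551 promoters of genes tested and 33.9% of 59 sarcomere promoters. MEF2 was found in 1 of 19 (5.26%), against 1.665% of all and 16.9% of the sarcomere promoters, and CArG in 1 of 19 (5.26%), against 1.162% and 13.6%. A match describes letters and not a bound site, and these shares were not tested. The 4 sequences shown are those of strongly differing energy and calcium genes that held a match. Capitals mark CAGCTG in the first 3, at 249, 107 and 19 bases before the start, and MEF2 in Pvalb at 180 bases before it.
Ckm, chr7:19410844-19411093, plus strand: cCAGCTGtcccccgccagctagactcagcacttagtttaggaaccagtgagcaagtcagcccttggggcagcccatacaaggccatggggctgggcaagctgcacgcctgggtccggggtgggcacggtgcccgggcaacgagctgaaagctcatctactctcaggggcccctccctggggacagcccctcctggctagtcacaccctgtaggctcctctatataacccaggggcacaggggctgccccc
Ckmt2, chr13:91876886-91877135, minus strand: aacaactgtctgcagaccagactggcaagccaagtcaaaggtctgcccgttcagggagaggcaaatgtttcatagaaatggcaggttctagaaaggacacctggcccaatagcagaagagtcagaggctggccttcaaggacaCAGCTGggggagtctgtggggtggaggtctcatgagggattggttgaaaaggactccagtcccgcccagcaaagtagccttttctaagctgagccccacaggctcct
Cox8b, chr7:140900447-140900696, minus strand: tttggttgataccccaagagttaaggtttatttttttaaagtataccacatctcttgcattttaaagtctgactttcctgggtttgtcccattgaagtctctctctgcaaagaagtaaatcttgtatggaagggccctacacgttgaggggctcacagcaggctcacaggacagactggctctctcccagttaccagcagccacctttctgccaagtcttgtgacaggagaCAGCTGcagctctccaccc
Pvalb, chr15:78206401-78206650, minus strand: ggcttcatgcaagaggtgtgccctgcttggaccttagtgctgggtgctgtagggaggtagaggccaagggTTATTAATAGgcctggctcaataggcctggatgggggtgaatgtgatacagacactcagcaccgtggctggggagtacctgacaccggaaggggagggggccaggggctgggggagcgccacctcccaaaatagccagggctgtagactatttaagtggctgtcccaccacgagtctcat

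The muscle-rich tumours differed among themselves in fibre type. Fast-fibre genes were high in all 4, with a median ratio to the muscle-poor median over 16 genes of 61.0 in osteosarcoma 6, 37.0 in osteosarcoma 9, 8.78 in osteosarcoma 3 and 6.90 in osteosarcoma 8. Over 13 slow-fibre genes the same ratios were 15.6, 2.08, 4.05 and 3.15, which put osteosarcoma 9 last. Only 5 of the 16 fast and 3 of the 13 slow genes lay outside the sarcomere list. In osteosarcoma 9 all 16 fast genes exceeded every muscle-poor tumour but only 4 of 13 slow genes did, and it was the lowest of the 4 in 7 of the 13. Myh4, the fastest myosin heavy chain, was 43807 in osteosarcoma 6, 28725 in osteosarcoma 9, 2150 in osteosarcoma 3 and 3157 in osteosarcoma 8. Myh7, the slow myosin heavy chain, was 1815, 114.7, 526.1 and 418.5, so osteosarcoma 9 lay below the muscle-poor median of 116.4 while the other 3 exceeded the muscle-poor maximum of 295. Myl2, the slow regulatory light chain, had 3099, 115.9, 1072 and 854.4, and Myl3, the slow essential light chain, 824.7, 78.6, 183.1 and 222.5. In both, osteosarcoma 9 was the lowest of the 4 and lay inside the muscle-poor range. Mb and the slow troponins Tnni1 and Tnnt1 were among the exceptions, in which osteosarcoma 9 was among the 2 highest. Each tumour is 1 array, so these differences between tumours have no replicate check.

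**Figure D3:**
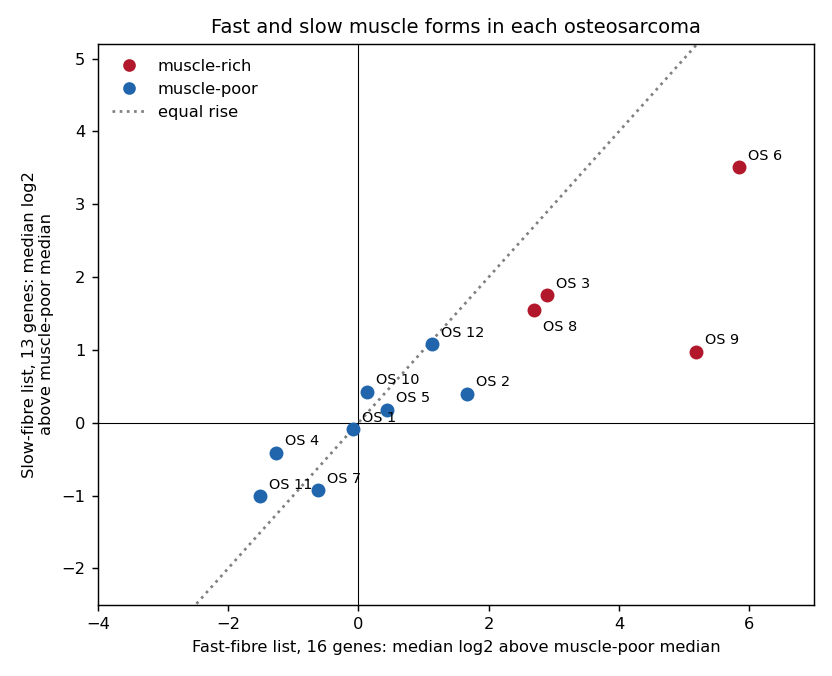
Each point is 1 osteosarcoma; the axes give the median log2(signal + 30) above the muscle-poor median over 16 fast-fibre genes (across) and 13 slow-fibre genes (up), and the dotted line marks an equal rise. Osteosarcoma 9 lies far to the right of the line and below osteosarcomas 3 and 8 in height, while osteosarcoma 6 is highest on both axes.

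Forms of developing and regenerating muscle were highest in osteosarcomas 6 and 9. Over 8 such genes the median ratio to the muscle-poor median was 9.84 in osteosarcoma 6, 6.98 in osteosarcoma 9, 2.86 in osteosarcoma 8 and 2.17 in osteosarcoma 3. Only 3 of the 8 lay outside the sarcomere list. The same 2 tumours led in 52 of the 71 sarcomere genes, and their fast-fibre ratios were larger, 61.0 and 37.0. Their lead was therefore not particular to these forms. Myh3, the embryonic myosin heavy chain, had signals of 765.9, 461.3, 113.2 and 200 in osteosarcomas 6, 9, 3 and 8. The muscle-poor maximum was 201.7, so only osteosarcomas 6 and 9 lay above it.

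None of the genes listed for other tissues was called, where 0.247% of all genes outside the sarcomere list were. In all, 19 lists of other tissues and cell states held 291 tested genes outside the muscle lists, of which limma called 0 and gave 18 (6.19%) an unadjusted p under 0.05, close to the 5.97% of all genes. The counts therefore do not set these genes apart from the rest. The osteoblast and bone matrix list had a median difference of -0.12 over 22 genes and the osteoclast list 0.02 over 17. Ibsp, the bone matrix protein bone sialoprotein, had signals of 30967 to 34377 in the muscle-rich and 30211 to 49088 in the muscle-poor tumours. Acp5, the tartrate-resistant phosphatase of osteoclasts, had 28442 to 41003 and 26172 to 53850. Both were strong in both sets and overlapped. The tendon list had a median difference of 0.15, with 7 of 11 differences above 0, and its transcription factor Scx had 39.1 to 221.9 and 64.1 to 252.2. The mean log2 level of the tendon list was 10.68 in osteosarcoma 6 and 10.04 in osteosarcoma 9, above the muscle-poor maximum of 9.86, and 9.39 in osteosarcoma 3 and 8.65 in osteosarcoma 8. The cartilage list, with a median difference of 0.11 over 10 genes, had levels of 8.63, 8.39, 7.61 and 7.78 in osteosarcomas 6, 9, 3 and 8, against at most 8.03. The mean levels of both lists were thus above the muscle-poor range in the pair of tumours with the most Acta1 and not in the other pair. Few single genes were above every muscle-poor tumour. In osteosarcoma 6 these were 3 of 11 tendon and 3 of 10 cartilage genes, and in osteosarcoma 9 they were 1 of 11 and 1 of 10. The part of these 2 lists in the muscle gene differences was not tested. Hypoxia genes had a median difference of -0.32 over 16 genes and endothelial genes of 0.40 over 22, with the levels of both lists overlapping between the sets.

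Cell cycle genes had a median difference of 0.33, with 25 of 26 differences above 0, 0 limma calls and 3 genes with an unadjusted p under 0.05. Osteosarcoma 12, a muscle-poor tumour, was the lowest of the 12 in 25 of the 26. Mki67, a marker of dividing cells, had signals of 2837 to 3572 in the muscle-rich and 556.1 to 2752 in the muscle-poor tumours, a gap of the sets without a call (adjusted p = 0.744). Igf1, a growth factor made by muscle, bone and other tissues, likewise had 1106 to 1415 against 211 to 1027 (adjusted p = 0.639).

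The marrow and fat lists were above the muscle-poor range in osteosarcoma 6 alone. In osteosarcoma 6, 10 of 12 neutrophil genes and 7 of 7 erythroid genes were at their highest of the 12 tumours. Hemgn, a gene of red cell precursors, was 1278 there and at most 28.5 in the other osteosarcomas, and Ltf, which encodes the neutrophil protein lactoferrin, was 2104. The mean log2 level of the erythroid list was 5.86 to 10.04 in the muscle-rich and 5.87 to 7.21 in the muscle-poor tumours, and that of the neutrophil list 8.42 to 11.60 and 7.75 to 10.46. Osteosarcoma 9 had the lowest erythroid level of the 12 tumours, 5.86. The adipocyte list had 7 of 12 differences above 0, from -0.50 to 1.75, with a median of 0.15. Its largest difference was in Adipoq, the fat cell hormone adiponectin, which had signals of 1570, 462.2, 274.1 and 819.5 in osteosarcomas 6, 9, 3 and 8, against 66.8 to 504.5 (difference 1.75, adjusted p = 0.344). The mean level of the adipocyte list was 9.90, 8.97, 8.84 and 8.74 in the same order, against 8.38 to 9.50. The part of marrow or fat in the muscle gene differences was not tested.

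**Figure D4:**
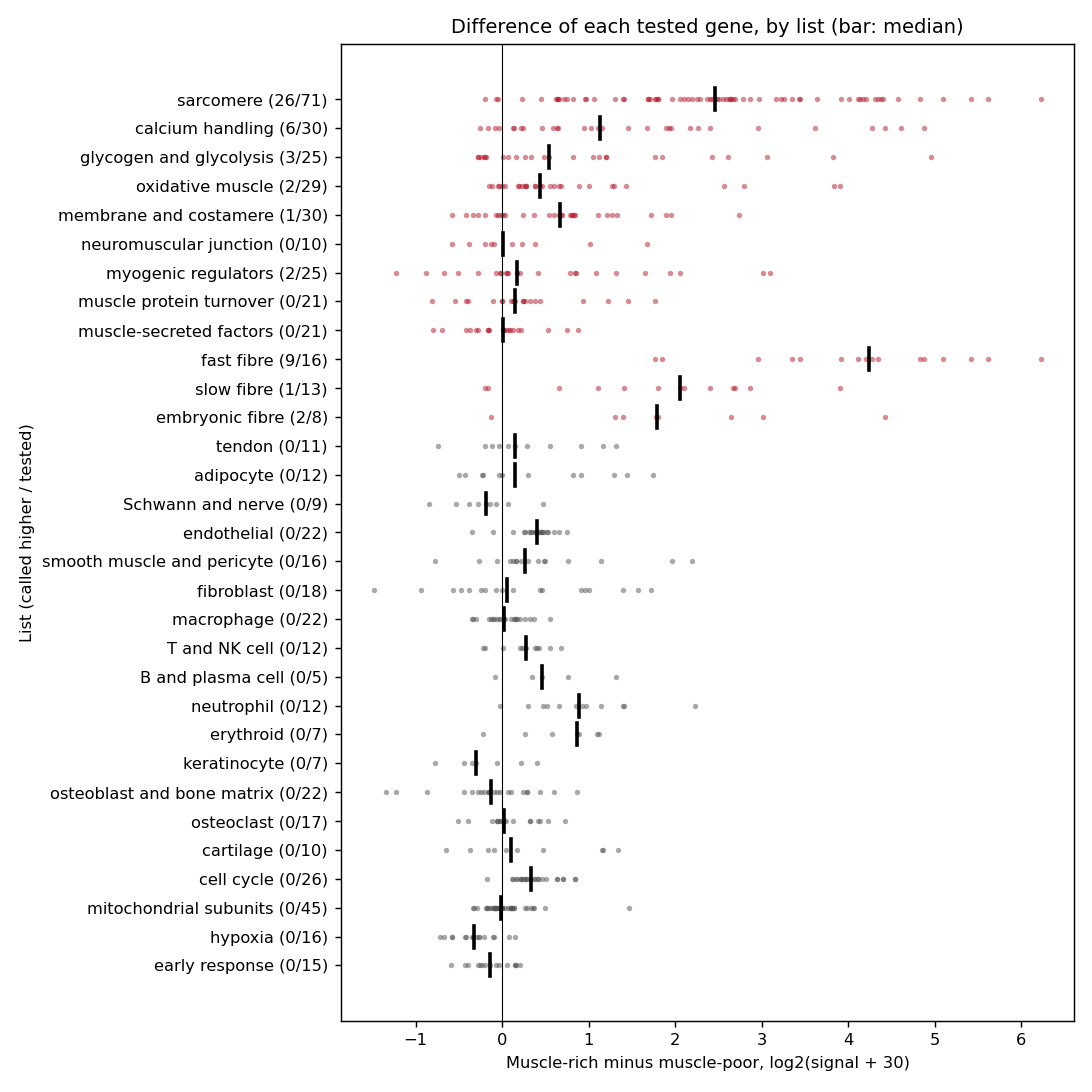
Each point is 1 tested gene's difference, muscle-rich minus muscle-poor, on the log2(signal + 30) scale; black bars are list medians, red lists are muscle and fibre types, grey lists other tissues, and each label gives genes called higher over genes tested. The fast-fibre and sarcomere lists reach furthest right, calcium handling has a median of 1.13, and the neutrophil (0.89) and erythroid (0.86) lists have the highest medians of the grey lists.

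Complete separation of the sets was more common than a call. All 4 muscle-rich signals exceeded all 8 muscle-poor signals in 111 genes (0.939% of 11817), and 74 of these lay outside the sarcomere list (0.63%). The reverse held for 23 genes (0.195%, and 0.196% outside the list). Of the 74, 47 were not called, and the following are named after their values were seen. Asb5, Asb11 and Asb15, adaptors of ubiquitin ligases, had muscle-rich signals of 355.1 to 1669, 108.5 to 1742 and 42.1 to 953.3, against muscle-poor maxima of 305.9, 101.5 and 37.8. Asb15 was 953.3 in osteosarcoma 6 and at most 94.7 in the other 3. Prkag3, the AMP-activated kinase subunit of fast muscle, had 75.9 to 529.2 against at most 63.3, and Rpl3l, a ribosomal protein form of striated muscle, 71.4 to 963.5 against at most 44. Asb11, Asb15, Prkag3 and Rpl3l reached the minimum signal in no muscle-poor tumour, so that filter may have partly fixed their separation. Among the osteosarcomas, Asb15 reached the minimum signal in osteosarcoma 6 alone. Of the 23 that were lower, 22 were not called. Among these Otor, a secreted protein of cartilage, had muscle-rich signals of 2.4 to 29.5 against 34.9 to 288.2, and 3043 in mc3T3. All its muscle-rich signals lay under the 30 units added before the logarithm and may be background.

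Across the 12 osteosarcomas, the genes outside the sarcomere list most like Acta1 were ranked by Pearson r on log2(signal + 30), as a description over tumours that share arrays and scaling. Asb5 and Mb had r = 0.963, Ankrd1 0.947, Atp2a1 0.945, Cacng1 0.929 and Ank2 0.926. Sln followed at 0.917, Bex1 at 0.912, Myhas at 0.903 and Casq1 at 0.889. Ankrd1, a stress-responsive partner of titin, had signals of 3651, 3794, 1095 and 1015 in osteosarcomas 6, 9, 3 and 8, against 5.7 to 766.2. It was also high in mc3T3, at 1474, and in the tumour labelled rhabdomyosarcoma, at 1127. Ank2, the membrane adaptor ankyrin-B, spanned a small range, 100.2 to 174.1 against 31.8 to 97, all under the minimum signal of 200, and it was tested only through the tumour labelled rhabdomyosarcoma at 681.2. Among the 29 called genes only Sln, Bex1 and Myhas stood in these 10. The ranking also weighs the order within each set, and why the other called genes fell outside it was not tested.

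The muscle-poor tumours allowed a test within 1 side of the split, whose order the threshold had not set. Among these 8, the mean log2 level of the 30 calcium handling genes was set against that of the 71 sarcomere genes. Osteosarcoma 4 had the lowest levels of both, 6.87 for the sarcomere and 7.31 for calcium handling, and osteosarcoma 11 was next in sarcomere level with 6.91 and 7.42. Osteosarcomas 2 and 12 had the highest, 8.62 and 8.13 in the former and 8.64 and 7.98 in the latter. Pearson's r was 0.953 (exact permutation p = 0.000794, adjusted over 8 relations 0.00635) and Spearman's rho 0.929 (exact permutation p = 0.00223, adjusted 0.0179), both two-sided. Without osteosarcomas 4 and 11, farthest from the median sarcomere level, r was 0.964, and leaving out each tumour in turn gave 0.938 to 0.965. Without Acta1 in the sarcomere level r was 0.953 (adjusted exact permutation p = 0.00675). With only the 18 calcium handling and 57 sarcomere genes that reached 200 in a muscle-poor tumour it was 0.962 (adjusted exact permutation p = 0.00258). The letters c, m and o hold 4, 3 and 1 of these tumours. With the letter as a block r was 0.931, but the relation no longer passed (exact permutation p = 0.0278 over 144 orders within letters, which allow no p below 0.00694, and 0.111 adjusted). These 3 versions were added after the data were seen, the adjusted p over all 13 alternatives ranged from 0.00258 to 0.111, and both levels come from the same arrays.

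The other 7 relations did not pass in these 8 tumours. Pearson's r with the sarcomere level was 0.716 for the adipocyte list and 0.687 for myogenic regulators (exact permutation p = 0.0406 and 0.0594, both 0.159 adjusted). It was 0.599 for the neuromuscular junction, 0.557 for membrane and costamere, 0.448 for glycogen and glycolysis, 0.389 for oxidative muscle and 0.364 for osteoblast and bone matrix, with adjusted exact permutation p-values of 0.240 to 0.362. Spearman's rho for the 7 lay between 0.214 and 0.643, with adjusted exact permutation p-values of 0.315 to 0.619. Without osteosarcomas 4 and 11 the neuromuscular junction value was -0.201 and the membrane value 0.236, so these rested on that pair. Without osteosarcoma 12 the oxidative value was -0.126. Without osteosarcoma 5 the adipocyte relation passed (r = 0.844, adjusted exact permutation p = 0.0254), and without osteosarcoma 12 the neuromuscular junction relation passed (r = 0.890, adjusted exact permutation p = 0.0159). Over the 13 alternatives run, adjusted exact permutation p-values ranged from 0.0254 to 0.324 for the former and from 0.0159 to 0.5 for the latter. With the letter as a block r was 0.936 for the adipocyte list (adjusted exact permutation p = 0.111).

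**Figure D5:**
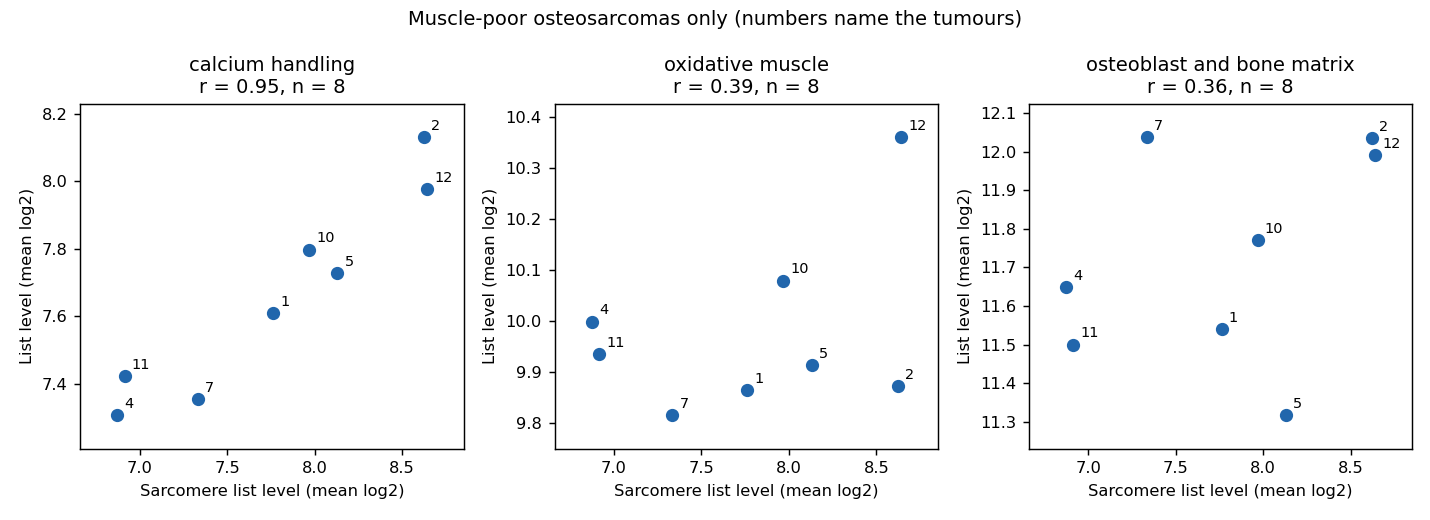
Points are the 8 muscle-poor osteosarcomas, named by number; the horizontal axis is the mean log2(signal + 30) of the 71 sarcomere genes and the vertical axis that of the calcium handling, oxidative muscle or osteoblast and bone matrix list. The points of the first panel rise together (r = 0.95), while those of the other panels scatter (r = 0.39 and 0.36).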

How the data were processed

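Per the labels' protocols, total RNA was isolated on columns and labelled with biotin, and 14 arrays were read. The deposited values are probe set signal intensity on a linear scale from the GCOS software (submitters' processing notes, no version). The authors had scaled every array to a trimmed mean of 500, as the values show. How background was removed is not given in the sources used here. No detection calls were used, so low signals may be background, and precision is limited by the number of arrays.

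The members and the gene lists were chosen with earlier results of these data known. Groups came from the titles, and the numbers of tumours follow accession order as names only. The highest correlation between arrays was 0.953, so all were kept. Of 45101 probe sets, 64 are controls, 34945 had 1 gene symbol, 932 several and 9160 none, by the platform annotation updated through a GRCm38.p6 gene table. Values were taken as log2(signal + 30), which understates the change of low genes. A gene was its brightest probe set among those reaching 200 units on 1 array or more, giving 11817 genes. Of 693 distinct list members, 553 were tested. Of the 29 called genes, 10 had several probe sets and 0 had one of opposite sign.

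The 4 muscle-rich and 8 muscle-poor osteosarcomas were compared in R 4.3.3 with limma 3.58.1 (lmFit, eBayes, two-sided, Benjamini-Hochberg over all genes, 10 residual and 3.72 prior degrees of freedom). The fit was tested on simulated data. No set test was run. A list level is the mean log2 value of its genes. Relations used exact permutation over all orders of 8 tumours, or, with the letter as a block, over orders within letters (Python 3.11.15), without sarcomere genes. Named genes were Acta1 and Actn3; the 15 genes outside the sarcomere list with the largest difference called higher and the 10 called lower; up to 3 called genes of each list, or, with none called, the 2 with the largest difference; the 10 most like Acta1; and a fixed set of muscle, bone, fat and tendon genes, of which Pax7 was below the minimum signal and Mstn had no probe set named by the annotation used and is not analysed here.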

Additional observations from a re-analysis of the deposited data

Results flagged for a closer look

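In 226 groups of 4 or 8 osteosarcomas, 16 had 1 tumour standing apart from the rest by Dixon's test, which flags about 1 in 20 groups by chance. Among the muscle-rich tumours, osteosarcoma 6 stood apart in Ltf (signal 2103.5), in Hemgn (signal 1277.6) and in the mean log2 level of the erythroid list (10.04). Osteosarcoma 8 stood apart in the level of the muscle-secreted factors (8.97) and of the osteoblast and bone matrix list (11.33), the lowest of the 4 in both.

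Among the muscle-poor tumours, osteosarcoma 2 stood apart in Pvalb (signal 330.3), the highest of the 8. Osteosarcoma 4 stood apart in Ltf (signal 676.2) and in the level of the neutrophil list (10.46). Osteosarcoma 7 had the lowest Igf1 signal (211). Osteosarcoma 12 stood apart in Mki67 (signal 556.1), Cenpe (signal 161.2) and the level of the cell cycle list (9.09), the lowest of the 8 in each, and in Krt10 (signal 1310.4), the highest. Osteosarcoma 10 had the highest level of the endothelial list (10.25), osteosarcoma 1 the lowest of the cartilage list (7.03) and osteosarcoma 11 the highest of the early response list (10.38).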

How the results depend on the processing

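Of the 19 genes called by the main test and named by the rule, 0 changed direction under the 25 alternatives, and 240 of 469 single results stayed on their side of the threshold while 229 lost the call. These genes were chosen for their difference on the same arrays, so an unchanged direction was largely fixed in advance. With a pseudocount of 10, 11 genes were called higher, 6 of them outside the sarcomere list, and 0 lower. The count called lower was 2 with a pseudocount of 100 and with the mean of a gene's probe sets, 3 with array weights and 0 with Acta1 as a continuous term. With at least 4 arrays at the minimum signal, 19 genes outside the sarcomere list were called and 15 genes were lower without overlap, against 35 with no filter and 39 after quantile normalization. Splitting at an Acta1 signal of 2500, or the identifier letter as a block, gave 0 calls in each direction and 0 outside the list. Of 11817 genes, limma gave 436 and 599 an unadjusted p under 0.05, against 705 (5.97%) in the main comparison. The split at 2500 left 53 genes higher and 10 lower without overlap. The m tumours alone gave 0 calls in each direction and 0 outside the list, and with their smaller sets 745 genes higher and 536 lower without overlap. Without osteosarcomas 6 and 9, chosen after seeing the data, 1 gene was called higher, the 1 outside the list, and 0 lower, with 327 higher and 172 lower without overlap. The cause of these changes was not tested. Where tumours were left out, fewer tumours were also compared.

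Leaving out each osteosarcoma in turn gave 0 to 80 genes called higher, 0 to 49 outside the sarcomere list, 0 to 2 lower, and 114 to 187 higher and 27 to 67 lower without overlap. The relations to the sarcomere level then ranged from 0.938 to 0.965 for calcium handling, 0.642 to 0.844 for adipocyte, 0.205 to 0.734 for glycogen and glycolysis, 0.405 to 0.688 for membrane and costamere, 0.552 to 0.810 for myogenic regulators, 0.437 to 0.890 for the neuromuscular junction, 0.184 to 0.629 for bone and -0.126 to 0.604 for oxidative muscle. The calcium handling relation passed in 12 of its 13 alternatives; with the identifier letter as a block, added after seeing the data, r was 0.931 (adjusted exact permutation p = 0.111). No paired analysis was possible because the labels give the tumours no replicate numbers. Genes near the minimum signal of 200 are limited by signal over background, which these values cannot separate.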
